A study of Mus musculus with 74 samples.

Results

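The genes described here handle zinc, iron and copper: the metal transporters of the Slc11, Slc30, Slc31, Slc39 and Slc40 families together with the metallothioneins Mt1 and Mt2, the transferrin receptor Tfrc, the iron reductase Cybrd1, the iron oxidase Heph and the ferritin chains Fth1 and Ftl1. They were taken by symbol and family name and number 36 of the 24015 gene symbols in the count table. The 36 are 14 Slc39, 10 Slc30, 2 Slc31 and 2 Slc11 members, 1 Slc40 member and the 7 genes added by name.

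The study measured RNA in mouse gut epithelium, in 31 libraries of 15 groups. Wild-type CD1 embryos gave forestomach (the squamous part of the mouse stomach), hindstomach (its glandular part) and small intestine at E12, E14 and E16, and small intestine also at E18, with 2 libraries per group and no treatment. The E12 and E14 small intestine is described as midgut in the labels. Small intestine labelled Cdx2-/- came from a B6;129 mixed background with both Cdx2 alleles floxed. Those labelled deleted at E10 carried Shh-Cre, were untreated and were taken at E16 (3 libraries). Those labelled deleted at E13 (taken at E16) and at E15 (taken at E18) carried Villin-Cre, and the mice were gavaged with 5 mg of tamoxifen (2 libraries each). Adult ileum villi came from Cdx2f/f mice on the same mixed background, either with Villin-Cre and 1 mg of tamoxifen injected on 5 days, or without Cre and injected with sunflower oil (2 libraries each). Villin-Cre acts in intestinal epithelium and Shh-Cre in early endoderm, and the adult animals with and without Cre also differed in tamoxifen. In the embryo, strain and genotype cannot be told apart, because every wild-type library is CD1 and every labelled deletion library is of the mixed background. Nor can tamoxifen be told apart from the label in the pairs labelled deleted at E13 and E15, since wild-type embryos had none. Cells up to E16 came from trypsin digests and an Epcam sort, whereas E18 and adult epithelium was released as villi with EDTA, so stage and isolation cannot be told apart between E16 and E18. Adult libraries were made with another kit than embryonic ones and were fitted separately.

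Iron enters the absorptive cell of the gut after reduction by the ferrireductase Cybrd1, through the proton-coupled transporter Slc11a2 (DMT1). It is stored in ferritin, built from Fth1 and Ftl1 chains, or leaves through the exporter Slc40a1 (ferroportin), with oxidation by hephaestin (Heph). Zinc is brought into the cytosol by the Slc39 (ZIP) family and removed from it, across the plasma membrane or into vesicles, by the Slc30 (ZnT) family, and the metallothioneins bind zinc and copper in the cytosol. Copper enters through Slc31a1 (CTR1).

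Levels below are in CPM, with library sizes adjusted by TMM, and are not divided by gene length, so they are compared between libraries and not between genes. A gene was called when the edgeR quasi-likelihood test gave a Benjamini-Hochberg adjusted p below 0.05 over all genes tested and a log2 fold change (log2 change below, given with its standard error, SE) of at least 1 in either direction, and "rose", "fell", "higher" and "lower" for a comparison refer to calls. In the embryonic fit, 35 of the 36 genes passed the filter on low counts (Slc30a8 did not), and 31 passed in the adult fit. Total counts were 5970227 to 62463167 in embryonic libraries, lowest in the E16 forestomach pair, and 14788004 to 23164522 in adult ones. The labels do not say that libraries of a group came from separate animals, so p-values measure the spread between these libraries, which may be technical.

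Cdx2 was read in every library as the check of the labels. It was at 14.5 to 27.5 CPM in the libraries labelled deleted at E10, against 196 and 218 in E16 wild type. It was not lower in the other labelled groups. It stood at 213 and 217 CPM in the pair labelled deleted at E13, those labelled deleted at E15 stood at 371 and 388 against 200 and 206 at E18, and adult libraries labelled knockout at 462 and 472 against 242 and 248. Counts per gene do not show whether an exon was removed, so these groups are named by their labels throughout. The pair labelled deleted at E13 also stood apart from its stage: its Spearman correlation across 18692 genes was 0.936 to 0.938 with E18 wild type and 0.957 with the pair labelled deleted at E15, but 0.860 with E16 wild type. The fetal RNA H19, read after its values were seen, was below 1 CPM in that pair and above 900 CPM in E16 wild type. E12 hindstomach carried Cdx2 at 116 and 160 CPM, like E12 small intestine at 115 and 153. E16 forestomach libraries held 1.69% and 2.21% of their counts in 12 erythroid genes and 2.59% to 3.1% in 9 genes of mesenchyme and muscle, against 0.0219% to 0.0222% and 0.155% to 0.173% in E16 small intestine. E12 hindstomach also went against its label in Gata4 and Pdx1, transcription factor genes read after their values were seen. Gata4 stood at 0.369 to 0.569 CPM in E12 hindstomach and 338 to 358 in E14 hindstomach, against 273 to 277 in E12 forestomach and 55.7 to 58.1 in E14 forestomach. Pdx1 was at 0 to 0.461, 31.4 to 32.6, 24.6 to 27.5 and 1.67 to 3.69 CPM in the same order, so for both genes the stomach groups at E12 had the reverse of their order at E14. The 5 forestomach genes went with the labels at E12 (0.0385% to 0.0401% of counts in forestomach and 0.00215% to 0.00402% in hindstomach). The 5 hindstomach genes, which share Sox2 with that list, took 0.022% to 0.0246% in E12 forestomach and 0.00117% to 0.00272% in E12 hindstomach, against 0.0215% to 0.0267% and 0.0464% to 0.0546% at E14. The 7 pancreas genes took 0.0414% to 0.0457% and 6.73e-05% to 7.52e-05% at E12, against 0.0104% to 0.0116% and 0.0909% to 0.0953% at E14. Every value given for E12 hindstomach, E12 forestomach, E16 forestomach or the pair labelled deleted at E13, and every comparison with one of them, rests on these libraries.

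The 36 genes fell into a few patterns across the 15 groups. A block of intestinal transporters (Slc11a2, Heph, Slc31a1, Slc39a4, Slc39a5, Slc39a14 and Slc30a2) rose in the small intestine between E14 and E16, and 4 of these 7 (Heph, Slc39a4, Slc39a14 and Slc30a2) were higher again at E18. Slc40a1, Slc39a8, Mt1 and Mt2 were high in E16 small intestine and fell by E18. Slc39a7, Slc30a6, Slc30a7 and Slc30a9, which serve organelles in most cell types, were called in none of the 20 comparisons. The barely detected Slc39a12 was called in none of those in which it was tested, and Slc30a8 passed no filter and was not tested.

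**Figure D1:**
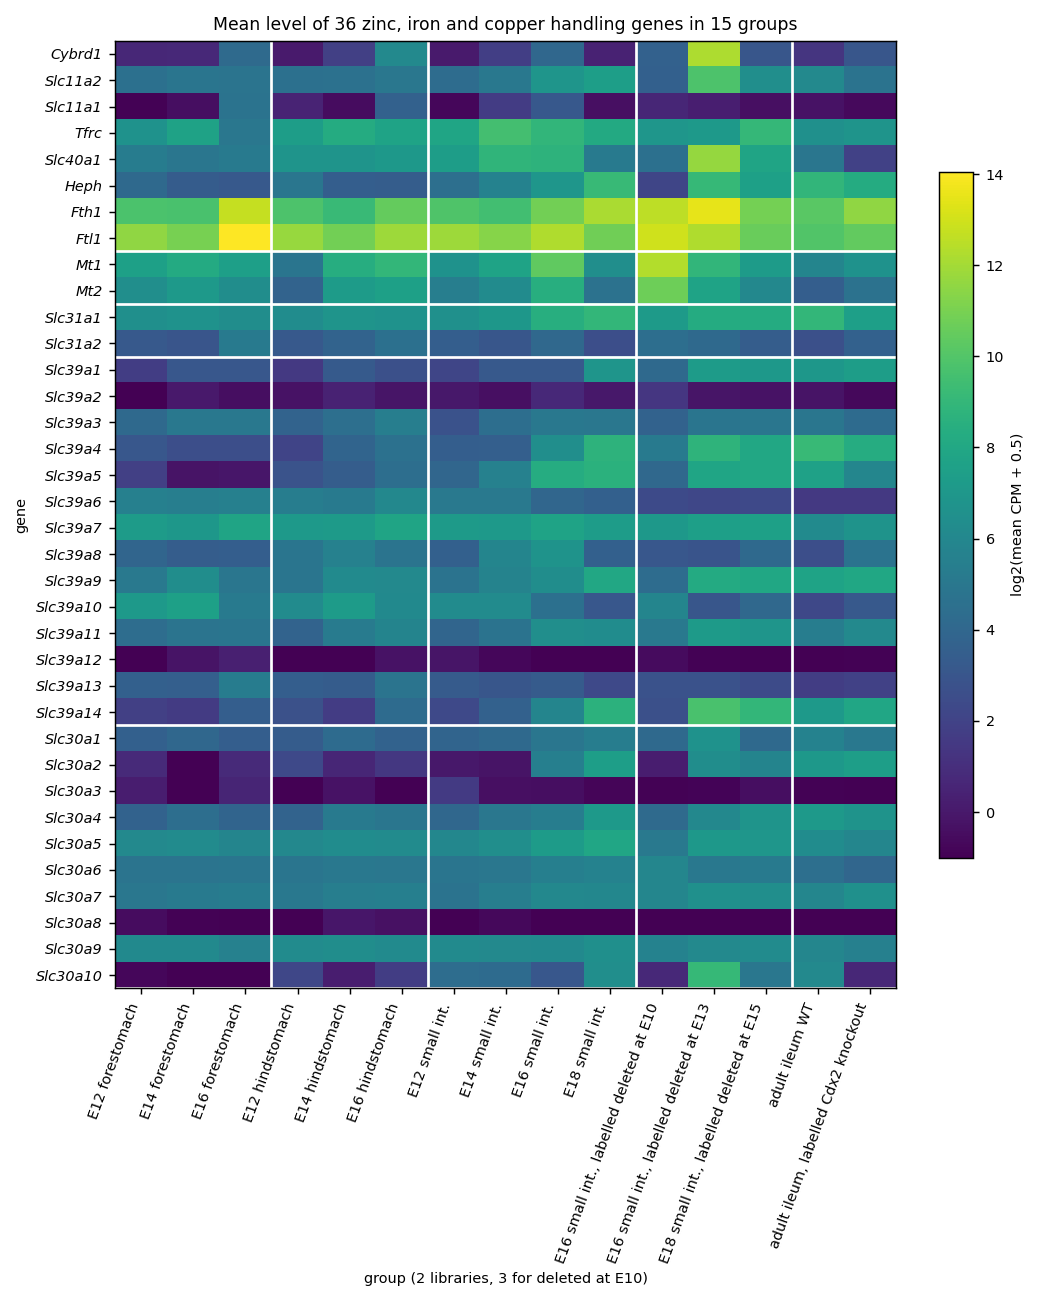
Heat map of the mean level of each of the 36 genes (rows, grouped from top to bottom as iron, metallothionein, copper, Slc39 and Slc30 genes) in each of the 15 groups (columns); colour is log2(mean CPM + 0.5), and white lines part the gene groups, the organs, the labelled deletions and the adult pair. Colours compare groups within a row and not rows with each other, since CPM is not divided by gene length; the column labelled deleted at E13 stands out at Cybrd1, Slc11a2, Slc40a1 and Slc30a10.

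Between the 3 organs, the number of these genes called was highest at E16. At E12, 5 of 35 were called between forestomach and hindstomach (7.11% of all tested genes), 6 of 35 between forestomach and small intestine (10.1% of all genes), and 9 of 35 between hindstomach and small intestine (9.28% of all genes). At E14 the counts were 6 of 35 (all genes 8.46%), 9 of 35 (all genes 11.9%) and 9 of 35 (all genes 6.83%) for the same pairs of organs. Single libraries decided some of these counts. At E12, forestomach against small intestine gave 10 calls without small intestine replicate 2, and hindstomach against small intestine 5 without small intestine replicate 1. Forestomach against hindstomach at E14 gave 3 without forestomach replicate 2. E16 brought 15 of 35 (all genes 20.1%), 23 of 35 (all genes 35%) and 17 of 35 (all genes 25.7%). Over all genes the E16 forestomach and hindstomach comparison depends on the scaling: 1081 of 3464 calls were higher in forestomach with TMM and 1436 of 3298 with DESeq2's size factors, and none of the 15 members called there changed sign, while Mt2, Slc30a4 and Slc39a10 fell below the fold minimum (-0.97, -0.85 and -0.84). Most members called at E16 were lower in the stomach. Against small intestine, 18 were lower in forestomach (16.4% of all genes were) and 5 higher (18.6%), with a median log2 fold change of -1.41 over the 35 against 0.00 over all genes. In hindstomach 13 were lower (8.1% of all genes) and 4 higher (17.5%), with a median of -0.61 against 0.18. Marker shares differed between these groups. The 5 epithelium genes took 0.157% to 0.162% of counts in E16 forestomach, 0.751% to 0.782% in E16 hindstomach and 0.839% to 0.862% in E16 small intestine. E16 hindstomach held 0.876% to 0.912% in mesenchyme and muscle genes, 0.137% to 0.192% in erythroid genes and 0.0922% to 0.0974% in the 3 gastric parietal genes, where E16 small intestine held 0.155% to 0.173%, 0.0219% to 0.0222% and 8.19e-05% to 0.000174%. The part of these shares in the E16 counts was not tested. In bulk libraries such as these, fewer cells of a type and less RNA per cell cannot be told apart. Fitted on only the 2 groups compared, forestomach against small intestine at E12 gave 2 called members, beside 188 of 14168 genes in all, and hindstomach against small intestine at E12 gave 1, beside 122 of 14379.

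Through time, the calls in small intestine were mostly rises until E16. Between E12 and E14, 12 of 35 were called, every one of them higher at E14 (11.3% of all genes were higher, 4.89% lower and 16.2% called in either direction). Fitted on those 4 libraries alone, the same comparison gave 2 calls, beside 214 of 14291 genes in all. Between E14 and E16, 13 rose and 3 fell, where 25.6% of all genes were called (13.7% higher and 11.9% lower). Between E16 and E18 9 rose and 10 fell, where 42.1% of all genes were called (20.1% higher and 22.1% lower). Marker shares moved over the same steps. The 5 small intestine genes took 0.0229% to 0.0258% of counts at E12, 0.0761% to 0.0884% at E14, 0.385% at E16 and 1.27% to 1.28% at E18. At the same 4 stages the 9 mesenchyme and muscle genes took 0.0105% to 0.0129%, 0.0306% to 0.0378%, 0.155% to 0.173% and 3.04e-05% to 6.87e-05%. The 12 erythroid genes took 0.0114% to 0.0136%, 0.00606% to 0.00651%, 0.0219% to 0.0222% and 5.69e-05% to 0.000109%. The 9 macrophage and leukocyte genes took 0.00183% to 0.00298%, 0.0102% to 0.0109%, 0.025% to 0.0267% and 0.0147%. Their part in the changes of the members was not tested. In hindstomach 13 were called from E12 to E14 (all genes 17.2%) and 8 from E14 to E16 (all genes 22%). Forestomach had 5 from E12 to E14 (all genes 12.7%) and 12 from E14 to E16 (all genes 37.7%). The E12 to E14 count was 8 without E12 forestomach replicate 2 and 3 without E14 forestomach replicate 1. The E14 to E16 share is near the background of its comparison, it rests on the E16 forestomach libraries with the erythroid and mesenchymal counts given above, and its split over all genes (3587 of 6494 calls higher with TMM) was 4261 of 6300 with DESeq2's size factors. The change of the hindstomach and small intestine difference from E12 to E16 was itself called for 12 of 35 members (20.3% of all genes).

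Of the iron uptake genes, Slc11a2 was called between stages only once, in small intestine from E14 to E16. It stood at 20.1 and 19.6 CPM in E12 small intestine, 30.4 and 32.8 at E14, 118 and 113 at E16 and 179.7 and 173 at E18. The E16 libraries lay clear of every earlier one (log2 change 1.88, SE 0.16, edgeR adjusted p 4.1e-08). E16 forestomach at 25.9 and 28.0 and E16 hindstomach at 31.1 and 31.1 lay in the range of the E14 libraries of the 3 organs, and small intestine was above both (log2 change -1.90, SE 0.16, edgeR adjusted p 4.4e-08 for hindstomach against small intestine). The hindstomach difference at E16 was not the one at E12 (difference of log2 changes -2.10, SE 0.23, edgeR adjusted p 1.9e-06), where the E12 hindstomach pair is one of the groups that stand apart.

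Cybrd1, the reductase that supplies Slc11a2 with ferrous iron, followed another course, with its highest wild-type level in E16 hindstomach. In hindstomach it stood at 0.646 and 0.449 CPM at E12, 3.10 and 3.16 at E14 and 67.3 and 67.6 at E16, the first of these in libraries that went against their label in part. The step from E14 to E16 was called (log2 change 4.43, SE 0.53, edgeR adjusted p 4.1e-06) and the 2 stages did not overlap. Over this step the share of counts in the 9 mesenchyme and muscle genes went from between 0.00658% and 0.00735% at E14 to between 0.876% and 0.912% at E16 and that of the 12 erythroid genes from between 0.00199% and 0.00204% to between 0.137% and 0.192%, and their part in the Cybrd1 change and in the other hindstomach calls of this step was not tested. E16 small intestine held 17.6 and 13.7 CPM and E18 only 0.493 and 1.26 (log2 change -4.05, SE 0.65, edgeR adjusted p 2.8e-05). E16 hindstomach was above E16 small intestine (log2 change 2.11, SE 0.47, edgeR adjusted p 0.00145), the reverse of the order for Slc11a2. The E16 to E18 value depends on 1 library: without E18 small intestine replicate 2 it was -4.97. A call from E12 to E14 in small intestine (2.27) was lost without E12 replicate 1 (1.43) or E14 replicate 2 (2.00), and the hindstomach one was lost without E12 replicate 2 (2.27). E12 libraries held between 3 and 81 counts of Cybrd1.

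The exporter Slc40a1 was highest in small intestine, then hindstomach, then forestomach at E12, E14 and E16. Each step of that order was called except hindstomach against small intestine at E12. At E14 the libraries held 29.1 and 29.2 CPM in forestomach, 107 and 114 in hindstomach and 433 and 476 in small intestine, with no overlap between organs. Against small intestine the log2 change was -3.96 (SE 0.15, edgeR adjusted p 2.5e-12) for forestomach and -2.04 (SE 0.14, edgeR adjusted p 1.2e-08) for hindstomach. Forestomach against hindstomach gave a log2 change of -1.44 at E12, -1.92 at E14 and -1.91 at E16. In small intestine it rose from 151 and 184 CPM at E12 to the E14 level (log2 change 1.44, SE 0.14, edgeR adjusted p 8.1e-07), stayed at 432 and 418 at E16, and fell to 33.9 and 36.7 at E18 (log2 change -3.59, SE 0.15, edgeR adjusted p 9.7e-13). The E18 villi held the lowest share of Slc40a1 counts among wild-type small intestine libraries of the embryo. Adult wild-type ileum, scaled in its own fit, held 22.9 and 37.4 CPM.

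Heph, the oxidase that works with the exporter, did not follow it after E16. Small intestine held 28.9 and 16.1 CPM at E12, 43.8 and 56.8 at E14, 121 and 117 at E16 and 567 and 569 at E18. It rose from E14 to E16 (log2 change 1.25, SE 0.21, edgeR adjusted p 9.1e-05) and again to E18 (log2 change 2.25, SE 0.21, edgeR adjusted p 3.8e-08), over the interval in which Slc40a1 fell. The call from E12 to E14 (1.16) was lost without E12 replicate 2 (0.80) or E14 replicate 2 (0.97). Hindstomach went the other way between E12 and E14, from 30.0 and 28.9 to 10.8 and 10.5 CPM (log2 change -1.47, SE 0.21, edgeR adjusted p 4.2e-05). The hindstomach and small intestine libraries overlapped at E12, and at E16 hindstomach was lower (log2 change -3.52, SE 0.23, edgeR adjusted p 1.4e-09). The difference between stages was -3.90 (SE 0.30, edgeR adjusted p 3.9e-08). The E12 ends of these comparisons are the E12 hindstomach libraries, with Cdx2 at 116 and 160 CPM, and its part in these values was not tested.

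Tfrc, through which cells take up transferrin-bound iron, had its highest wild-type levels in E14 small intestine. Small intestine held 208 and 247 CPM at E12, 712 and 794 at E14, 444 and 509 at E16 and 283 and 285 at E18, a rise from E12 to E14 (log2 change 1.73, SE 0.19, edgeR adjusted p 3.1e-06) with no call afterwards. Hindstomach held 321 and 297 at E14 and 218 and 200.5 at E16, below small intestine at both stages (-1.28 and -1.19 on the log2 scale). Forestomach fell from 210.4 and 189 CPM at E14 to 25.3 and 37.2 at E16 (log2 change -2.67, SE 0.20, edgeR adjusted p 3.6e-09), the lowest level of any group.

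The ferritin chains moved opposite to Tfrc in that organ. Fth1 went from 866 and 807 CPM in E14 forestomach to 6514 and 7254 at E16 (log2 change 3.04, SE 0.17, edgeR adjusted p 6.6e-11) and Ftl1 from 2041 and 1976 to 15707 and 18347 (log2 change 3.08, SE 0.14, edgeR adjusted p 3.9e-12). Every E16 forestomach library lay above every E16 hindstomach and small intestine library for both. The same libraries were high in the haem and mitochondrial iron genes of the wider list: the mitochondrial iron importer Slc25a37 stood at 1278 and 1935 CPM against 40.4 and 44.2 in E16 small intestine, and the haem transporter Slc48a1 at 923 and 1145 against 29.5 and 35.8. Their erythroid share of 1.69% and 2.21% came from 6 of the 12 erythroid genes, since the adult globins Hba-a1, Hba-a2, Hbb-b1, Hbb-b2, Hbb-bs and Hbb-bt have 0 counts in all 31 libraries. The erythroid shares therefore hold no adult globin counts in any group, and the zeros are not particular to E16 forestomach. The part of erythroid and mesenchymal RNA in the ferritin and Tfrc values was not tested. In small intestine, where the erythroid share was 0.0219% to 0.0222% at E16, Fth1 also rose from E14 to E16 (log2 change 1.33, SE 0.16, edgeR adjusted p 2.6e-06) and on to E18 (1.33, SE 0.16, edgeR adjusted p 9.2e-07), whereas Ftl1 fell from 4929 and 4726 to 1773 and 1782 CPM at E18 (log2 change -1.44, SE 0.13, edgeR adjusted p 1.6e-08). The 2 ferritin genes have processed pseudogenes, so their counts can hold shared reads.

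Slc11a1, the iron transporter of macrophage phagosomes, was below 3 CPM in all 12 wild-type libraries of E12 and E14, and reached 31.8 and 19.6 CPM in E16 forestomach, 14.3 and 10.2 in E16 hindstomach and 7.90 and 9.01 in E16 small intestine. At E18 it was 0.411 and 0.110 (log2 change -5.08, SE 0.86, edgeR adjusted p 5.7e-05). The 9 macrophage and leukocyte genes took 0.0843% to 0.12% of counts in E16 forestomach, 0.0955% to 0.118% in E16 hindstomach and 0.025% to 0.0267% in E16 small intestine, against 0.000363% to 0.0109% across E12 and E14. At E18 they took 0.0147%, and their part in the Slc11a1 values was not tested. The E18 value moved from -4.35 to -6.20 as 1 or the other E18 library was left out.

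**Figure D2:**
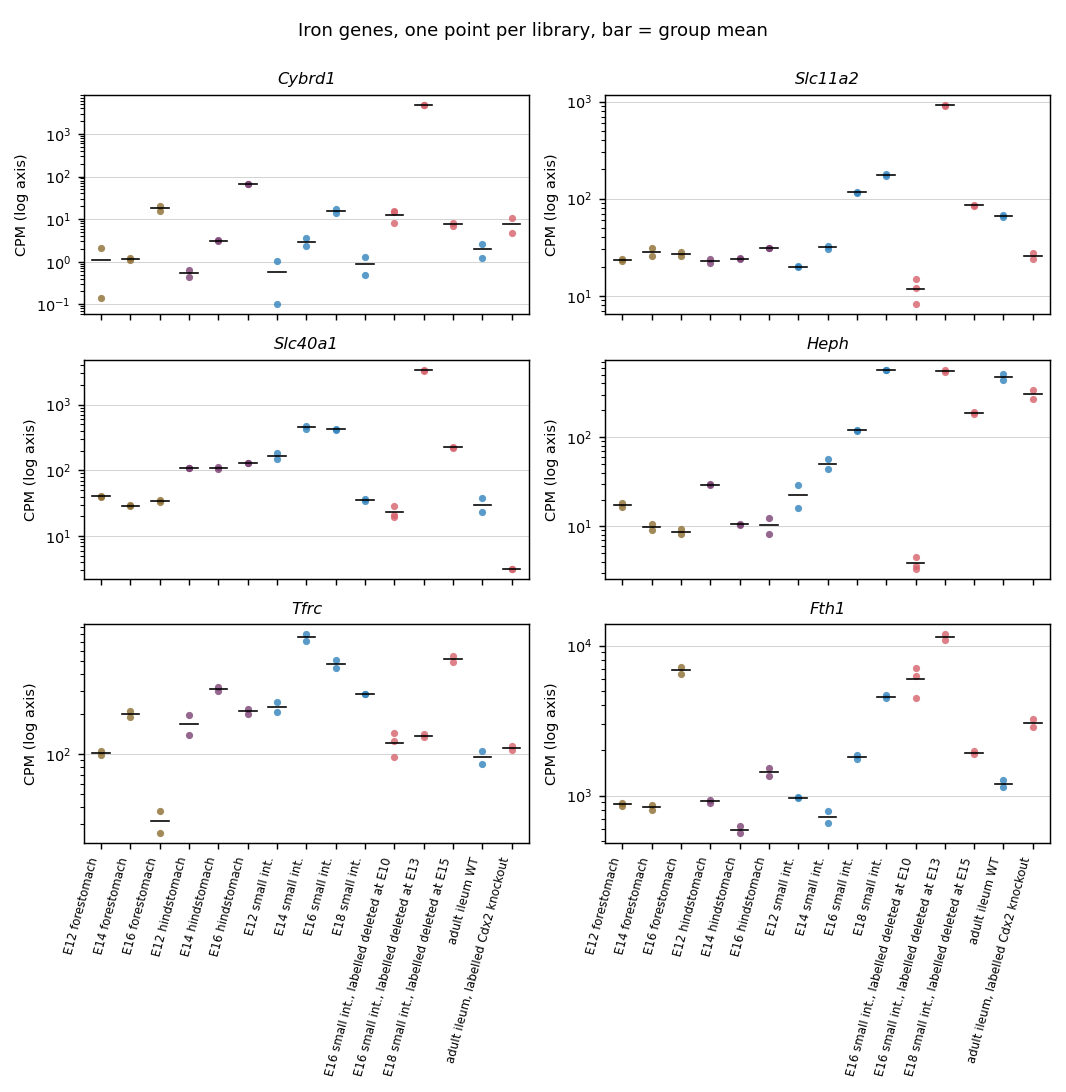
Level of 6 iron genes in each of the 31 libraries, in CPM on a log axis; a point is 1 library and a bar the group mean, with forestomach in brown, hindstomach in purple, wild-type small intestine or ileum in blue and labelled deletions in red. Slc40a1 is low and Heph high in E18 small intestine, and the pair labelled deleted at E13 is the highest for Cybrd1, Slc11a2, Slc40a1 and Fth1.

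The copper importer Slc31a1 rose in the intestine over the same interval as the iron importer. Slc31a1 stood at 90.0 and 96.6 CPM in E12 small intestine, 119 and 129.8 at E14, 352 and 345 at E16 and 505 and 506 at E18. E16 exceeded E14 (log2 change 1.49, SE 0.12, edgeR adjusted p 2.3e-08), and E16 hindstomach at 109 and 97.5 CPM remained below E16 small intestine (log2 change -1.75, SE 0.12, edgeR adjusted p 3.5e-09). At E12 hindstomach held 76.6 and 84.6 CPM and the change in that difference was called (-1.54, SE 0.17, edgeR adjusted p 2.5e-06), again with the E12 hindstomach libraries at one end. Slc31a2, a relative that acts on vesicular copper, was highest in E16 forestomach at 35.3 and 34.4 CPM (log2 change 2.27, SE 0.34, edgeR adjusted p 1.9e-05 against E14). Those forestomach libraries also held the erythroid share of 1.69% and 2.21%, the mesenchyme and muscle share of 2.59% to 3.1% and 0.0843% to 0.12% in macrophage and leukocyte genes, and the part of these in the Slc31a2 value was not tested. It fell in small intestine from 20.1 and 13.2 CPM at E16 to 5.42 and 5.60 at E18 (log2 change -1.59, SE 0.34, edgeR adjusted p 0.000574), while the E16 to E18 change of Slc31a1 was 0.54, below the fold minimum. Against E16 small intestine, the forestomach call for Slc31a2 (1.07) was lost without small intestine replicate 2 (0.80).

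As a pair, the metallothioneins rose in small intestine from E14 to E16 and then fell. In small intestine Mt1 went from 98.5 and 102 CPM at E12 to 237 and 184 at E14 and 1413 and 1306 at E16, then down to 85.1 and 84.4 at E18. Mt2 went from 39.2 and 47.5 through 82.0 and 68.6 to 346 and 350.2, then to 23.7 and 25.5. From E12 to E14 Mt1 was called, a call lost without E14 replicate 1 (0.88), and Mt2 was not called. Both rose from E14 to E16 (Mt1 log2 change 2.69, SE 0.25, edgeR adjusted p 1.3e-07; Mt2 log2 change 2.21, SE 0.32, edgeR adjusted p 1.9e-05) and both fell from E16 to E18 (Mt1 log2 change -4.00, SE 0.27, edgeR adjusted p 4.5e-10; Mt2 log2 change -3.82, SE 0.34, edgeR adjusted p 2.0e-08). E18 libraries lay below those of E12 in both genes. In hindstomach the call lay earlier: Mt1 stood at 30.7 and 26.0 CPM at E12 and 328 and 339 at E14 (log2 change 3.56, SE 0.27, edgeR adjusted p 1.2e-08), from an E12 pair that was the lowest of the series for Mt1 and that stands apart by its Cdx2. Mt2 in the same step went from 18.8 and 8.05 to 143 and 162 CPM (3.50, and 4.24 without E12 replicate 1). Forestomach held 205 and 171, 295 and 286 and 190.5 and 167 CPM of Mt1 at the 3 stages, with no call between them.

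Across the 20 comparisons the log2 fold changes of Mt1 and Mt2 had the same sign in 20, and both were called in the same direction in 8. The ratio of Mt1 to Mt2 CPM had a median of 2.66 and ran from 1.63 to 6.12 over the 31 libraries. CPM is not divided by length, so only the spread of this ratio is read here, not its size. It is narrow beside a range of Mt1 from 30.7 and 26.0 CPM in E12 hindstomach to 2795, 5981 and 6292 in the libraries labelled deleted at E10.

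**Figure D3:**
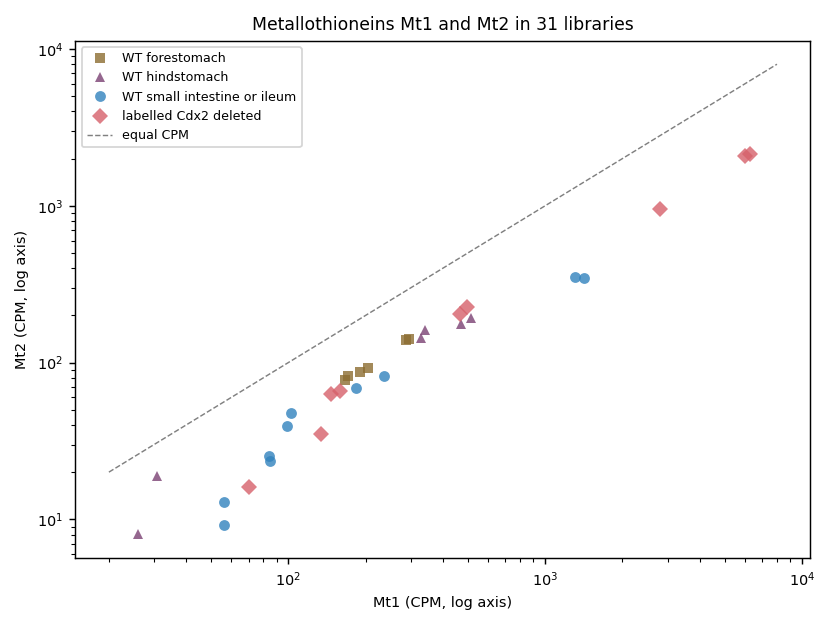
Mt2 against Mt1 in the 31 libraries, both in CPM on log axes; each point is 1 library, marked by organ or label, and the dashed line is equal CPM. The points follow a band below the line, with E12 hindstomach and adult wild-type ileum at the low end and the 3 libraries labelled deleted at E10 at the high end.

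Metallothionein genes, and the exporter gene Slc30a1, are known targets of the zinc-sensing factor MTF-1, which binds metal response elements. The sequences of 5 members are shown because they belong to the metallothionein pair, to the exporter known as a target, and to the 2 Slc30 genes called in more comparisons than the other Slc30 genes. Each is the 250 bases before the start annotated in RefSeq (build GRCm38.p6, plus strand), in lower case with matches to the 7-letter element cores TGCACNC or TGCGCNC, on either strand, in capitals. Neighbouring matches that overlap form 1 run of capitals.
Mt1: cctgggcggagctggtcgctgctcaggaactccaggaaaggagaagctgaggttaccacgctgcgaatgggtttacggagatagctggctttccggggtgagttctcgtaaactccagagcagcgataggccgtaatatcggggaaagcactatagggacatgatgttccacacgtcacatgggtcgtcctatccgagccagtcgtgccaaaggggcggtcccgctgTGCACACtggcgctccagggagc
Mt2: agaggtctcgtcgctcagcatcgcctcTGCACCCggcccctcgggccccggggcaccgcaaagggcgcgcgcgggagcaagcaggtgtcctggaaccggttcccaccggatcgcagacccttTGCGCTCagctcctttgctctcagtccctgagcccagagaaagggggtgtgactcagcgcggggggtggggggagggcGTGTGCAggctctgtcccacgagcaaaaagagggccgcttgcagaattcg
Slc30a1: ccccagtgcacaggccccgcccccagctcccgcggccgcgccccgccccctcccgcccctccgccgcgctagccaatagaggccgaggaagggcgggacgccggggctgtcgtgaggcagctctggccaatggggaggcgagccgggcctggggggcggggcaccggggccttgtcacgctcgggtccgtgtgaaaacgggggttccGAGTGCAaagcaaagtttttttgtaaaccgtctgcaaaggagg
Slc30a2: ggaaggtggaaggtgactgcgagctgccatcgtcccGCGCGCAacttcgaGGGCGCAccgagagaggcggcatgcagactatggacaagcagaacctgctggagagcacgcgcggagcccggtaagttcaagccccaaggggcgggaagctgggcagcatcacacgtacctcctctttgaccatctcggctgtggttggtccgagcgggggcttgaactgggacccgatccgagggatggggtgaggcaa
Slc30a10: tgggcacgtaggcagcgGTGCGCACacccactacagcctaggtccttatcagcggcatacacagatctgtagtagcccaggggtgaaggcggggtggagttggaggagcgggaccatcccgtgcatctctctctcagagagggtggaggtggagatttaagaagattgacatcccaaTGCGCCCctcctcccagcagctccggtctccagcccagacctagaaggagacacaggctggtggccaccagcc
These lie at chr8:94178839-94179088 for Mt1, chr8:94172368-94172617 for Mt2, chr1:191906531-191906780 for Slc30a1, chr4:134343216-134343465 for Slc30a2 and chr1:185454598-185454847 for Slc30a10, so Mt2 and Mt1 are neighbours on chromosome 8. Mt1 has 1 match, Mt2 3, Slc30a1 1, Slc30a2 2 and Slc30a10 3. Over the 300-base windows that include the 50 bases after the start, Mt1 has 3, Mt2 4 and Slc30a1 2. At least 1 match is found in 21.4% of all 32851 windows of 250 bases, and 3 or more in 1.26%. Of the 300-base windows, 25.7% hold at least 1 and 1.97% hold 3 or more. Of the 29 members with a window in the RefSeq table, 14 have a match in at least 1 window (48.3%), beside 23.8% of all 27025 genes with one. A match is a description of the letters and not a binding site. For Slc11a2, Slc40a1, Heph, Slc39a4, Slc39a14, Slc39a6 and Slc30a8 no window is shown.

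Among the zinc importers, Slc39a4, the apical importer of dietary zinc, and Slc39a5, which lies on the basolateral side, rose in the intestine. Slc39a5 stood at 9.47 and 21.3 CPM in E12 small intestine, 46.5 and 49.3 at E14, 307 and 321 at E16 and 395 and 384 at E18. The E14 to E16 rise was 2.71 on the log2 scale (SE 0.41, edgeR adjusted p 3.0e-05). Forestomach went down instead, from 3.03 and 3.05 CPM at E12 to 0.342 and 0.398 at E14 (log2 change -3.02, SE 0.64, edgeR adjusted p 0.00198) and 0 and 0.918 at E16. In forestomach the 7 pancreas genes took 0.0414% to 0.0457% of counts at E12 and 0.0104% to 0.0116% at E14. The 5 liver genes took 0.0168% to 0.0174%, then 0.00217% to 0.0025%, and the 12 erythroid genes 0.0292% to 0.0336%, then 0.00391% to 0.00432%. The 5 forestomach genes went up (0.0385% to 0.0401%, then 0.147% to 0.148%), as did some other lists. The part of these shares in the Slc39a5 values was not tested. Hindstomach lay between, at 19.3 and 23.6 CPM at E16, below small intestine (log2 change -3.87, SE 0.43, edgeR adjusted p 9.5e-07). The 3 organs did not overlap for Slc39a5 at E14 or E16. The call for small intestine from E12 to E14 (1.64) was lost without E12 replicate 1 (1.17) and was 2.34 without E12 replicate 2.

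Slc39a4 was called at both later steps. It stood at 16.8 and 4.33 CPM at E12, 11.3 and 11.044 at E14, 95.3 and 79.9 at E16 and 428 and 432 at E18 in small intestine. The rise to E16 (log2 change 2.97, SE 0.38, edgeR adjusted p 5.7e-06, then 2.29, SE 0.37, edgeR adjusted p 2.8e-05 to E18) left no overlap between stages. E16 forestomach held 5.71 and 5.66 and E16 hindstomach 27.9 and 20.5 CPM, both below small intestine (-3.94 and -1.85). The order of organs at E12 is not firm: the call of hindstomach below small intestine (-1.48) was -0.20 without small intestine replicate 1, -2.15 without replicate 2 and was also lost without hindstomach replicate 2 (-1.27).

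Slc39a14 and Slc39a8, close relatives that carry zinc, manganese and iron, parted after E16. Slc39a14 stood at 14.2 and 10.4 CPM in E14 small intestine, 61.8 and 52.5 at E16 and 414 and 414 at E18, called at both steps (log2 change 2.21, SE 0.27, edgeR adjusted p 3.5e-06, then 2.85, SE 0.28, edgeR adjusted p 5.0e-08). Slc39a8 stood at 8.62 and 14.8 CPM at E12, 55.8 and 60.8 at E14 and 101 and 111 at E16, then fell to 12.5 and 11.5 at E18 (log2 change -3.15, SE 0.27, edgeR adjusted p 1.4e-08). At E16 both were lower in hindstomach than in small intestine (-1.64 and -1.95). For Slc39a8 the order had been the reverse at E12, at 28.3 and 27.4 CPM in hindstomach (1.25), and the change between the stages was called (-3.20, SE 0.36, edgeR adjusted p 3.3e-06), both resting on the E12 hindstomach libraries that went against their label in part. The E12 call was lost without small intestine replicate 1 (0.91). Slc39a14 also rose from E14 to E16 in hindstomach (2.76) and forestomach (2.09).

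Slc39a10 and Slc39a6, a related pair of plasma-membrane importers, fell in small intestine between E14 and E16. Slc39a10 stood at 65.1 and 84.6 CPM in E14 small intestine, 21.1 and 24.5 at E16 and 7.40 and 8.56 at E18, lower at each step (log2 change -1.71, SE 0.22, edgeR adjusted p 4.4e-06, then -1.51, SE 0.23, edgeR adjusted p 1.6e-05). E14 forestomach held more, 189 and 189.7 CPM (log2 change 1.34, SE 0.21, edgeR adjusted p 0.000103 against small intestine). Slc39a6 was 66.7 and 64.6 CPM in E16 hindstomach and 10.8 and 19.4 in E16 small intestine (log2 change 2.12, SE 0.24, edgeR adjusted p 1.0e-06). The Slc39a10 fall from E14 to E16 in hindstomach was -1.10, and -0.96 without E16 replicate 2. That of Slc39a6 in small intestine over the same stages was -1.18, and -0.82 without E16 replicate 1.

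Of the other Slc39 genes, Slc39a1, a plasma-membrane importer, showed its step between E16 and E18, from 8.76 and 8.57 to 111 and 117 CPM in small intestine (log2 change 3.72, SE 0.29, edgeR adjusted p 2.8e-09). Slc39a9, of the Golgi and plasma membrane, rose over the same interval from 77.3 and 88.8 to 253 and 259.7 CPM (1.62). Slc39a11 rose from 25.7 and 26.5 CPM at E14 to 87.8 and 82.9 at E16 (1.71). Slc39a3 rose in small intestine between E12 and E14, from 5.82 and 7.17 to 19.7 and 22.6 CPM (1.70). Slc39a13, a transporter of the secretory pathway known from connective tissue, was highest in E16 forestomach at 47.7 and 32.8 CPM (log2 change 2.08, SE 0.38, edgeR adjusted p 0.000156 against small intestine), where the 9 mesenchyme and muscle genes also peaked, at 2.59% to 3.1% of counts; their part was not tested. Slc39a7, of the endoplasmic reticulum, lay between 65.1 and 227 CPM in all 31 libraries. Slc39a2 and Slc39a12 did not exceed 3.33 and 1.54 CPM in any library.

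Among the Slc30 genes, Slc30a2 and Slc30a10 were called most often. Slc30a2, which loads zinc into vesicles of secretory cells such as the Paneth cell, was 0.449 and 0.316 CPM in E14 small intestine, 42.3 and 47.5 at E16 and 176 and 167 at E18. The rise from E14 to E16 was 6.79 on the log2 scale (SE 0.84, edgeR adjusted p 3.6e-06), and E16 forestomach (1.85 and 0.612) and hindstomach (1.60 and 2.74) libraries lay far below. The E16 to E18 call (1.93) was lost without E16 replicate 1 (1.85), E16 replicate 2 (2.02) or E18 replicate 1 (1.90). The E12 hindstomach pair was uneven, at 8.12 and 0.987 CPM: without replicate 1 hindstomach against small intestine at E12 was 0.97 instead of 3.16. The 3 Paneth genes Lyz1, Defa24 and Mmp7 took 0.00479% to 0.00523% of counts in E16 small intestine and 0.0106% to 0.0113% at E18, against 0.000112% to 0.000142% at E14. They took 0.00492% to 0.00667% in E16 hindstomach, where Defa24 and Mmp7 had no count, and 0.00412% to 0.00476% in E16 forestomach, where Mmp7 had none. Their part in the Slc30a2 values was not tested.

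Slc30a10, which exports manganese from cells, was called in 17 of the 20 comparisons, more than any other of the 36. It separated the organs at every stage. In forestomach it had 0 counts in 5 of 6 libraries (0 and 0.207 CPM at E12, 0 and 0 at E14 and 0 and 0 at E16). E14 hindstomach held 0.741 and 0.602 and E14 small intestine 18.8 and 17.9 CPM. Against a floor of 3 counts per library, E14 small intestine was at least 155-fold higher than forestomach and E14 hindstomach at least 5.67-fold higher, the latter call being lost without forestomach replicate 2. In small intestine it fell from E14 to E16, at 5.99 and 10.2 CPM (-1.19), a call lost without E14 replicate 1 (-1.16) or E16 replicate 1 (-0.86), and then rose to 87.4 and 84.5 at E18 (log2 change 3.42, SE 0.40, edgeR adjusted p 1.2e-06). The hindstomach against small intestine call at E16 (-1.53) was lost without hindstomach replicate 2 (-1.33) or small intestine replicate 2 (-1.10), whereas at E14 it was -4.76 (SE 0.47, edgeR adjusted p 2.7e-06). At E12 the values of forestomach against small intestine (-7.36) ran from -11.90 without forestomach replicate 2 to -6.58 without replicate 1, both called.

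Slc30a1, the zinc exporter of the plasma membrane, was called in 4 of the 20 comparisons. It held 16.1 and 18.972 CPM in E14 small intestine, 29.4 and 29.2 at E16 and 40.4 and 42.1 at E18, with no call between stages, and was higher in E16 small intestine than in forestomach (-1.41) or hindstomach (-1.21; -0.96 without hindstomach replicate 2, below the fold minimum). Slc30a4 rose from 38.1 and 44.1 CPM at E16 to 136 and 138 at E18 (log2 change 1.74, SE 0.23, edgeR adjusted p 3.6e-06). Slc30a5, which forms a complex with Slc30a6 in the early secretory pathway, stood at 143 and 160.2 CPM in E16 small intestine and 52.8 and 61.7 in E16 forestomach (log2 change -1.40, SE 0.21, edgeR adjusted p 1.6e-05; the part of the erythroid and mesenchyme shares of that forestomach was not tested), while Slc30a6 stayed between 14.5 and 76.2 CPM in all 31 libraries and was called nowhere. Slc30a3, of synaptic vesicles, did not exceed 4.36 CPM and Slc30a8, of insulin granules, 0.526 CPM in any library.

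**Figure D4:**
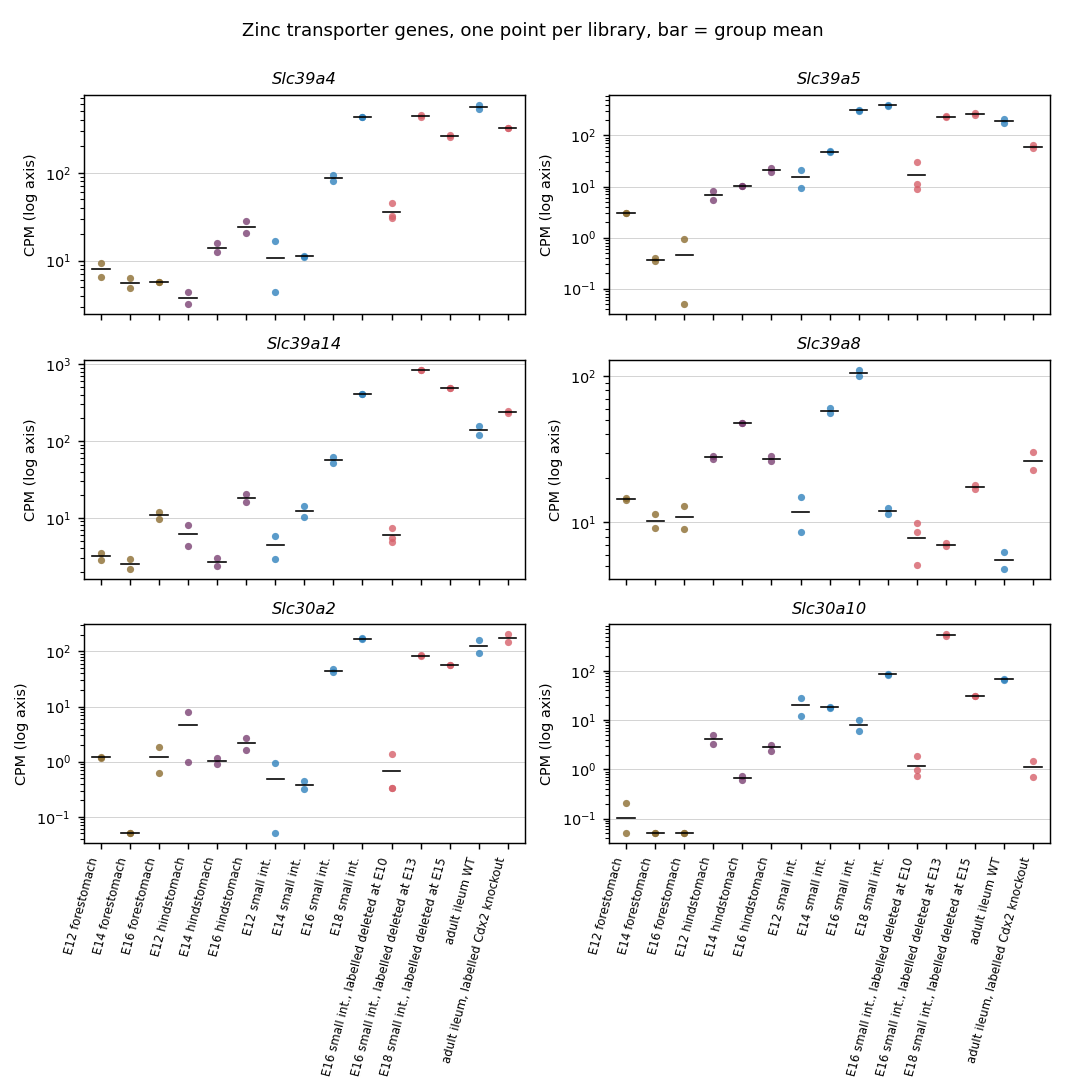
Level of 6 zinc transporter genes in each of the 31 libraries, in CPM on a log axis; a point is 1 library (values under 0.05 CPM are drawn at 0.05) and a bar the group mean, with forestomach in brown, hindstomach in purple, wild-type small intestine or ileum in blue and labelled deletions in red. Slc39a4, Slc39a5, Slc39a14 and Slc30a2 are higher in blue at E16 than at E14, while Slc39a8 drops from E16 to E18.

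The libraries labelled deleted at E10, the only labelled group with low Cdx2, held less RNA of most intestinal transporters among these genes. Of the 35 genes, 22 were called against E16 wild-type small intestine, 18 lower and 4 higher, where 51.5% of all genes were called, 27.6% lower and 23.9% higher. The median log2 fold change was -1.25 over the 35 and -0.10 over all genes. Both iron importer and exporter were lower: Slc11a2 held 12.1, 8.22 and 14.9 CPM against 118 and 113 (log2 change -3.31, SE 0.15, edgeR adjusted p 1.8e-12) and Slc40a1 19.2, 20.7 and 28.8 against 432 and 418 (log2 change -4.22, SE 0.14, edgeR adjusted p 2.4e-14). Heph was at 3.61, 3.36 and 4.57 CPM (log2 change -4.97, SE 0.22, edgeR adjusted p 1.3e-12), below every other library. No labelled library overlapped the wild type for these 3 genes. Cybrd1, at 8.08, 15.1 and 14.3 CPM, was not called (-0.34).

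In the same libraries 8 zinc importers were lower and both metallothioneins higher. Of the 14 Slc39 genes, 8 were lower and 1 higher, and of 9 Slc30 genes tested 4 were lower and 0 higher, beside 27.6% of all genes lower and 23.9% higher. Among the lower genes were Slc39a4 (-1.27), Slc39a14 (-3.26), Slc39a8 (-3.77) and the copper importer Slc31a1 (-1.25). Slc39a5 held 11.3, 9.06 and 29.6 CPM against 307 and 321 (-4.27, and -4.94 without labelled replicate 3), and Slc30a2 0.334, 0.336 and 1.36 against 42.3 and 47.5 (-6.23, and -7.05 without the same library). The genes higher there were Slc39a10 at 40.010, 71.1 and 61.3 CPM (1.33), Fth1 at 4476, 7107 and 6294 (1.72), Mt1 at 2795, 5981 and 6292 (log2 change 1.89, SE 0.23, edgeR adjusted p 8.0e-07) and Mt2 at 955, 2073 and 2154 (log2 change 2.31, SE 0.30, edgeR adjusted p 1.6e-06). The lowest labelled library exceeded the highest wild-type one for Mt1, Mt2, Fth1 and Slc39a10. The call for Slc30a4 (-1.22) was lost without labelled replicate 2 (-0.97). These libraries held 0.22% to 0.436% of counts in the 5 hindstomach genes, against 0.000414% to 0.000623% in E16 wild type, and 0.0607% to 0.0911% in the 5 small intestine genes, against 0.385%. The 9 mesenchyme and muscle genes took 0.0123% to 0.0183% against 0.155% to 0.173%, the 12 erythroid genes 0.0004% to 0.00082% against 0.0219% to 0.0222%, the 4 enteroendocrine genes 0.000439% to 0.00358% against 0.0359% to 0.0424%, and the 3 gastric parietal genes 0.0115% to 0.0215% against 8.19e-05% to 0.000174%. The 5 forestomach genes took 0.00902% to 0.0216% against at most 0.000153%, and the 5 liver genes 0.0336% to 0.057% against 0.0136% to 0.0153%. The 7 pancreas genes took 0.00169% to 0.00998% against 0.0179% to 0.0207%, and the 9 macrophage and leukocyte genes 0.00525% to 0.0186% against 0.025% to 0.0267%. The part of that change in tissue markers in the values of the 35 genes was not tested.

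Adult ileum labelled Cdx2 knockout differed from its control in 9 of 31 genes tested (20.4% of all genes in that fit), 4 higher (8.41% of all genes) and 5 lower (12%). The largest was Slc30a10, at 69.7 and 66.6 CPM in the controls and 1.49 and 0.713 in the labelled libraries (log2 change -5.86, SE 0.32, edgeR adjusted p 0.00159, and -6.53 without labelled replicate 1). Slc40a1 stood at 22.9 and 37.4 against 3.19 and 3.21 (log2 change -3.23, SE 0.30, edgeR adjusted p 0.00407) and Slc11a2 at 64.5 and 68.4 against 23.7 and 27.7 (log2 change -1.37, SE 0.14, edgeR adjusted p 0.00464). The groups did not overlap for any of the 3. Slc39a5 was also lower (209.6 and 179 against 56.2 and 65.3; log2 change -1.68, SE 0.15, edgeR adjusted p 0.00381), as was Slc31a1 (-1.48; without labelled replicate 1 -1.23, not called). Higher genes were Fth1, at 1263 and 1138 against 2878 and 3251 CPM (log2 change 1.35, SE 0.17, edgeR adjusted p 0.00771), and Slc39a8, at 6.32 and 4.82 against 22.8 and 30.1 (log2 change 2.25, SE 0.24, edgeR adjusted p 0.0052). Slc31a2 (1.07) and Slc39a10 (1.01) sat at the fold minimum. Their calls were lost on leaving out wild-type replicate 1 for Slc31a2 (0.96), wild-type replicate 2 for Slc39a10 (0.92), or either labelled library for both (1.06 and 1.12 for Slc31a2, 1.02 and 1.03 for Slc39a10), and that of Slc39a10 also without wild-type replicate 1 (1.09). Cdx2 counts were not lower in these labelled libraries (log2 change 0.93, edgeR adjusted p 0.00731). The labelled libraries held 0.742% to 0.848% of counts in the 5 small intestine genes against 1.39% to 1.48% in the controls, 0.0942% to 0.0977% in the 3 Paneth genes against 0.193% to 0.207%, and 0.000406% to 0.000535% in the 9 macrophage and leukocyte genes against 0.00226% to 0.00508%. The 4 enteroendocrine genes took 0.00242% to 0.00313% against 0.0108% to 0.0179%. Shares were higher in the labelled libraries for the 5 liver genes (0.0151% to 0.0438% against 0.000459% to 0.00121%), the 5 hindstomach genes (0.000432% to 0.00094% against at most 6.16e-06%) and the 3 gastric parietal genes (0.00121% to 0.00124% against 2.32e-05% to 4.93e-05%). The part of these shares in the values was not tested.

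In the E18 pair labelled deleted at E15, 11 genes were called against E18 wild type (17.5% of all genes), 4 higher (7.79% of all genes) and 7 lower (9.7%). Slc40a1 went up, from 33.9 and 36.7 to 219 and 229 CPM (log2 change 2.67, SE 0.15, edgeR adjusted p 2.1e-10), where the adult and E10 comparisons had it lower. Slc11a2 went down, from 179.7 and 173 to 86.7 and 84.5 (log2 change -1.04, SE 0.16, edgeR adjusted p 4.8e-05), as did Heph, from 567 and 569 to 179.6 and 192 (log2 change -1.61, SE 0.21, edgeR adjusted p 8.1e-06), and Fth1, from 4458 and 4674 to 1989 and 1881 (log2 change -1.24, SE 0.16, edgeR adjusted p 8.3e-06). Cybrd1 rose from 0.493 and 1.26 to 7.96 and 7.07 CPM (2.99, and 3.92 without E18 replicate 2), and Mt2 from 23.7 and 25.5 to 66.3 and 62.7 (1.39). Slc30a10 fell (87.4 and 84.5 to 30.7 and 30.7; -1.49), and so did the exporter Slc30a1 (-1.28), Slc39a6 (-1.43) and Slc30a5 (-1.04; -0.98 without labelled replicate 1, below the fold minimum). Slc39a10 was higher (1.04; 0.94 without E18 replicate 1, below the minimum). The spread between replicates of the 2 E18 wild-type libraries was near counting noise (chi-square of 1.53 per degree of freedom across 12775 genes). It was 2.48 in the pair labelled deleted at E13 and 5.02 in the pair labelled deleted at E15. Elsewhere it ran from 9.39 in E16 wild-type small intestine to 132 among the libraries labelled deleted at E10 (50.5 to 132). Marker shares differed in this pair as well. The labelled libraries held 0.755% to 0.764% of counts in the 5 small intestine genes against 1.27% to 1.28% in E18 wild type, 0.129% to 0.13% in the 3 Paneth genes against 0.0106% to 0.0113%, 0.0438% to 0.0481% in the 5 liver genes against 0.00281% to 0.00285%, and 0.000834% to 0.000973% in the 9 macrophage and leukocyte genes against 0.0147%. The 4 enteroendocrine genes took 0.0145% to 0.0147% against 0.037% to 0.0375%, the 5 hindstomach genes 0.00205% to 0.00223% against 2.28e-05% to 3.43e-05%, and the 3 gastric parietal genes 0.00496% to 0.00509% against 7.97e-05% to 9.73e-05%. The proliferation gene Mki67, read after its values were seen, stood at 527 to 583 CPM against 191 to 194. The part of these in the values was not tested.

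Libraries labelled deleted at E13 had the iron genes Cybrd1, Slc11a2, Slc40a1 and Fth1 at levels seen nowhere else in the series, but not Heph, Tfrc, Ftl1 or Slc11a1. Cybrd1 stood at 4771 and 4754 CPM, against 17.6 and 13.7 in E16 wild type, 0.493 and 1.26 at E18 and 7.96 and 7.07 in the pair labelled deleted at E15. Slc40a1 stood at 3404 and 3238, Slc11a2 at 922 and 910.1, Slc30a10 at 553 and 516 and Slc39a14 at 846 and 829 CPM, each above all 29 other libraries. Against E16 wild type, 17 of 35 were called (39.5% of all genes), 11 higher (18.7% of all genes) and 6 lower (20.8%), led by Cybrd1 (log2 change 8.25, SE 0.60, edgeR adjusted p 1.3e-09) and Slc30a10 (log2 change 6.05, SE 0.44, edgeR adjusted p 5.0e-09). Tfrc (-1.79), Slc39a8 (-3.91), Slc39a10 (-1.58), Slc39a6 (-1.86), Slc11a1 (-3.57) and Mt1 (-1.50) were lower. This pair was closer to E18 than to E16 wild type across all genes and its Cdx2 was not lower, so the values are those of 2 libraries so labelled, in which the label, the stage, the strain and tamoxifen cannot be told apart. It held 0.159% to 0.166% of counts in the 5 hindstomach genes and 0.0386% to 0.0388% in the 3 gastric parietal genes, against 0.000414% to 0.000623% and 8.19e-05% to 0.000174% in E16 wild type. The 9 macrophage and leukocyte genes took 0.00492% to 0.00502% against 0.025% to 0.0267%, the 9 mesenchyme and muscle genes 0.00412% to 0.00423% against 0.155% to 0.173%, and the 12 erythroid genes 0.000231% to 0.000282% against 0.0219% to 0.0222%. The 3 Paneth genes took 0.0245% to 0.0246% against 0.00479% to 0.00523%. The part of these shares in the values of the pair, that of Slc11a1 included, was not tested. The haem importer Slc46a1 at 847 and 860.3 CPM and the ferritin receptor Ncoa4 at 4517 and 4410.0 were high in it as well, against 9.56 and 10.4 and 419 and 463 in E16 wild type. Read against E18 wild type instead, with no test of that contrast, Slc39a4 (432 and 452 CPM, E18 428 and 432) and Heph (570.5 and 535, E18 567 and 569) were at the E18 level, while Cybrd1, Slc40a1, Slc11a2 and Slc30a10 were not.

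**Figure D5:**
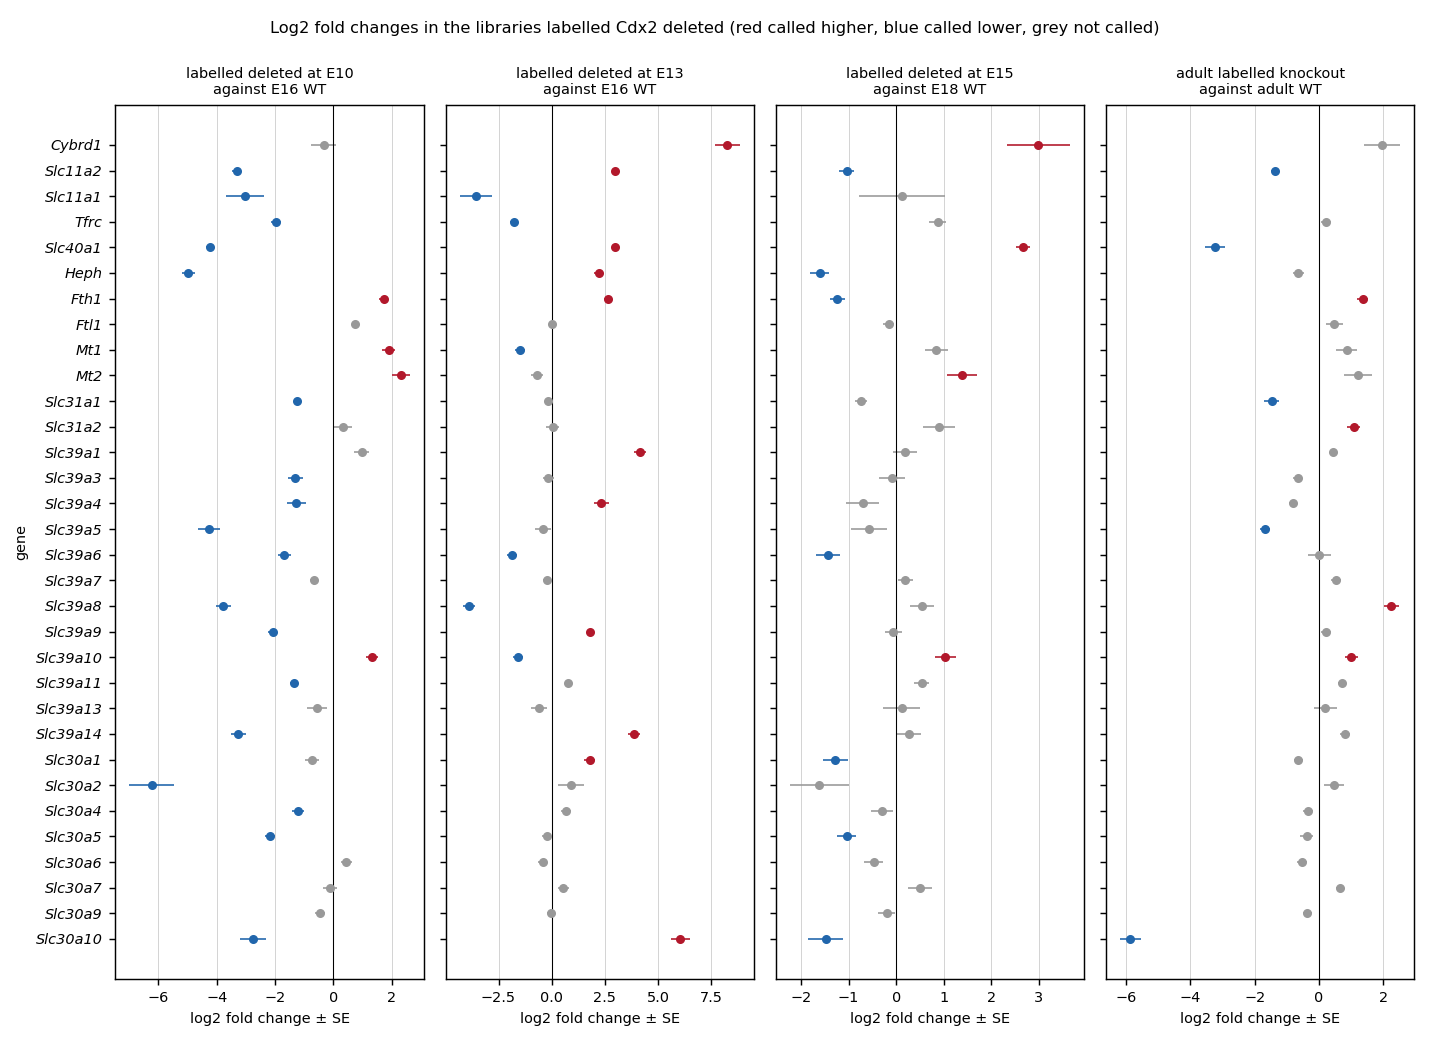
Log2 fold change with its standard error for the genes in each of the 4 labelled Cdx2 comparisons; red was called higher, blue called lower and grey not called, and the x axes differ between panels. Slc30a3, Slc30a8, Slc39a2 and Slc39a12, near the detection floor, are left out; Slc40a1 is blue in the E10 and adult panels and red in the other 2, while Slc11a2 and Slc30a10 are red in the E13 panel only.

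The E10 and E13 comparisons share the E16 wild-type pair as control. Side by side, the log2 change of Slc40a1 was -4.22 (E10), 2.96 (E13), 2.67 (E15) and -3.23 (adult). For Slc11a2 it was -3.31, 2.98, -1.04 and -1.37, and for Slc30a10 -2.77, 6.05, -1.49 and -5.86. Fth1 was higher in 3 of the 4 comparisons (1.72, 2.65 and 1.35) and lower in the pair labelled deleted at E15 (-1.24). The difference between the E13 and E15 effects was called for 17 of 35 members (37.9% of all genes), in a design where stage and deletion day differ together.

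Other genes of metal handling, a list of 46 of which 44 are in the table, were counted in the same comparisons. Against E16 wild type, 30 of the 40 tested were called in the E10 labelled libraries (11 higher, 19 lower), beside 51.5% of all genes. The copper chaperones Atox1 (738, 1573 and 1556 CPM against 143 and 139; 3.19) and Cox17 (2.57) and the copper enzyme Sod1 (2.60) were higher. The ferritin receptor Ncoa4 was lower (8.42, 7.63 and 11.981 against 419 and 463; log2 change -5.58, SE 0.18, edgeR adjusted p 2.4e-14), with transferrin (Trf, -4.40), the iron regulatory proteins Aco1 (-2.57) and Ireb2 (-1.21) and the copper pumps Atp7a (-1.25) and Atp7b (-2.08). In the adult, 10 of 31 were called (7 higher and 3 lower; all genes 20.4%). Haem oxygenase Hmox1 held 0.876 and 2.27 CPM in controls and 100.04 and 21.0 in labelled libraries (log2 change 5.25, SE 0.98, edgeR adjusted p 0.0186), and Ncoa4 149.98 and 106 and 666 and 747 (log2 change 2.46, SE 0.22, edgeR adjusted p 0.00371). The hypoxia factors Hif1a (3.13) and Epas1 (1.33), the latter known to drive iron absorption genes, were higher in the labelled libraries. Lcn2, another gene of the list, held 0.250 and 0 CPM in controls and 228 and 850 in labelled libraries.

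In the E18 pair labelled deleted at E15, 6 of 40 were called (2 higher and 4 lower; all genes 17.5%), among them the haem and folate importer Slc46a1 (448 and 453 in wild type and 119 and 108 CPM; log2 change -1.99, SE 0.32, edgeR adjusted p 8.6e-05) and Trf (2.69). In the pair labelled deleted at E13 23 were called (16 higher and 7 lower; all genes 39.5%). Between organs at E16, 9, 17 and 9 were called for forestomach against hindstomach, forestomach against small intestine and hindstomach against small intestine, beside 20.1%, 35% and 25.7% of all genes. The copper pump Atp7b was lower in E16 forestomach than in hindstomach (1.08 and 0.459 CPM against 35.8 and 28.9; log2 change -5.39, SE 0.49, edgeR adjusted p 1.1e-07), and Ireb2 was too (-1.97). From E16 to E18, small intestine gained Slc46a1 (5.50), Sod1 (3.94) and Epas1 (4.51), lost Trf (-4.14), and 13 of the list rose while 9 fell (20.1% and 22.1% of all genes).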

How the data were processed

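RNA libraries (75 bp, single end) were read from 1 table of gene counts; ChIP and ATAC samples of the series were not used here. The values are raw read counts per gene symbol as deposited, and the submitters' processing notes name STAR 2.5.3a, HTSeq, Bowtie2, MACS2 and mm9 without roles; whether counting used strand is not given in the sources used here. In each adult column 2 blank cells shift the rows below them; closing up these blanks moved 1 of the 36 genes, Tfrc, from 0 to 2 counts to 1340 to 2568, and raised the Spearman correlation with E18 wild type over the 1676 genes between the blanks from 0.28 to 0.295 up to 0.929 to 0.962. There were 2 columns that match no sample and 2 rows without a gene name, and none of these was used.

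From the counts, genes were filtered (filterByExpr, minimum count 10), scaled by TMM and tested with edgeR 4.0.16 (quasi-likelihood, R 4.3.3), in 1 fit of 27 embryonic libraries in 13 groups (17239 genes) and 1 of 4 adult libraries (12444 genes), with Benjamini-Hochberg adjustment over all genes. A call needed an adjusted p below 0.05 and a log2 fold change of at least 1, and 3 counts were the floor for a fold against a group without counts. The scripts were tested on simulated data. Alternatives were DESeq2 1.42.0, its size factors, no low-count filter, no fold minimum, only the groups compared, each library left out, a replicate block and, added after seeing the data, a fit without E12 hindstomach, E16 forestomach and the pair labelled deleted at E13. For the adult comparison there were also 1 fit of all libraries and a fit on the adult columns as deposited.

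The members, the wider list of 46 metal-handling genes and the marker lists were chosen with earlier results of these data known. Any member could be named; per-library values are given where a member was called or is one of 14 genes fixed by name, and genes of the wider list are named where called in a labelled Cdx2 comparison or between organs at E16. Promoter windows come from RefSeq (GRCm38.p6), a later build than mm9, and were matched by symbol; the 2 builds were not mixed.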

Additional observations from a re-analysis of the deposited data

Results flagged for a closer look

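Members whose difference between groups itself differed, by edgeR's test of the interaction, are listed here as values on the log2 scale. The hindstomach against small intestine difference moved from E12 to E16 by -3.90 for Heph, -2.10 for Slc11a2, -7.53 for Slc30a2, -1.06 for Slc30a5, -1.54 for Slc31a1, -2.11 for Slc39a14, -2.69 for Slc39a5, -3.20 for Slc39a8 and -1.09 for Slc40a1, and by 1.59 for Slc39a10, 1.81 for Slc39a6 and 12.30 for Slc39a12. The last is a gene near the floor that lost its call in 6 of 8 fits with 1 library left out. Slc30a2 ran from -5.33 without E12 hindstomach replicate 1 to -11.23 without E12 small intestine replicate 2. Slc30a5 lost its call in 4 of these fits, and Slc40a1 was -0.95 without E12 small intestine replicate 1. The E12 hindstomach pair behind these values carried Cdx2 at the level of E12 small intestine, and the part of that in the differences was not tested.

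The effect in the pair labelled deleted at E13, minus that in the pair labelled deleted at E15, was 5.26 for Cybrd1, 3.88 for Fth1, 3.83 for Heph, 4.03 for Slc11a2, 3.06 for Slc30a1, 7.54 for Slc30a10, 2.51 for Slc30a2, 3.97 for Slc39a1, 3.61 for Slc39a14, 3.04 for Slc39a4 and 1.87 for Slc39a9. It was -2.35 for Mt1, -2.08 for Mt2, -3.70 for Slc11a1, -2.62 for Slc39a10, -4.46 for Slc39a8 and -2.66 for Tfrc. The Slc30a2 call was lost in each of the 8 fits that left out 1 library, the Slc11a1 call in 2 and the Cybrd1 call in 1 (4.33, without E18 wild-type replicate 2). Stage, deletion day and the likeness of the first pair to E18 libraries cannot be told apart in these differences.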

How the results depend on the processing

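Counts of called members that moved by over 1.5 times were these. Without a fold minimum, forestomach against hindstomach at E12 gave 11 in place of 5, forestomach from E12 to E14 11 in place of 5, hindstomach 20 in place of 13 from E12 to E14 and 15 in place of 8 from E14 to E16, and the adult comparison 18 in place of 9. DESeq2 gave 8 for forestomach against hindstomach at E12. A fit on only the groups compared gave 2 in place of 6 for forestomach and 1 in place of 9 for hindstomach against small intestine at E12, and 2 in place of 12 for small intestine from E12 to E14. Leaving out 1 library gave, for forestomach against hindstomach, 4 to 7 (E12), 3 to 5 (E14) and 13 to 15 (E16), for forestomach against small intestine 5 to 10, 8 to 9 and 22 to 25, and for hindstomach against small intestine 5 to 9, 6 to 8 and 15 to 18. It gave 3 to 8 and 10 to 11 for the steps of forestomach, 11 to 15 and 7 to 9 for those of hindstomach, and 9 to 12, 13 to 16 and 17 to 18 for those of small intestine. The labelled comparisons gave 21 to 23 (E10), 17 in every fit (E13), 10 to 11 (E15) and 7 to 8 (adult), and the 2 differences 10 to 15 and 14 to 17. Of the 243 calls in the 20 comparisons, 52 were lost when some library was left out. The sign turned for Cybrd1 in forestomach from E12 to E14, not called at -0.05, which ran from -0.85 to 2.99 as a library was left out, and for Slc30a2 in hindstomach over the same step, called at -2.13, which ran from -2.96 to 0.07. No other called member value turned its sign under the alternatives run.

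DESeq2's size factors moved the all-gene median (log2 scale) from -0.135 to 0.011 for forestomach against hindstomach at E16, from 0 to 0.188 for forestomach against small intestine at E16, and from 0 to 0.257, 0.05 to 0.182 and -0.085 to 0.027 for forestomach, hindstomach and small intestine from E14 to E16. The correlation of deviations between libraries with the same replicate number was -0.152 in the adult and -0.0376 to 0.0973 elsewhere. With 2 libraries in a group the deviations mirror each other, so these values cannot show whether the samples were paired. A fit on only the groups compared kept 201 member calls and lost 29. With the replicate block 269 of 272 member calls were kept, with DESeq2 264, with its size factors 265 and without the low-count filter 271. The calls lost with the block were Slc39a2 in forestomach from E12 to E14 (adjusted p 0.0595), Slc39a10 in the adult (0.051) and Slc39a12 in the stage difference (0.0559). E16 forestomach, with the lowest totals, limits what can be detected among its low genes. Without E12 hindstomach, E16 forestomach and the pair labelled deleted at E13, 136 calls in the 12 comparisons that do not use them were kept and 4 were lost. E12 forestomach, whose Gata4 and Pdx1 also went against its label, stayed in that fit. The cause of these changes was not tested.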
